A study of Mus musculus with 14 samples.

Results

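CXCL9, CXCL10 and CXCL11 are the interferon-inducible chemokines that bind the receptor CXCR3. The members described here are the genes of this system, Cxcl9, Cxcl10, Cxcl11 and Cxcr3, chosen by gene symbol and not by any measured value. Rows for 3 of the 4 members, Cxcl9 (gene ID 17329), Cxcl10 (15945) and Cxcr3 (12766), were found among the 17656 genes listed for each mouse. Cxcl11 (gene ID 56066), which the RefSeq annotation of GRCm38.p6 lists as a transcribed pseudogene in this strain background, had no row by symbol or gene ID and was not analysed here. Liver RNA of 14 C57BL/6 mice was sequenced, 1 library per mouse: 3 wild-type (WT) and 3 Ythdf1−/− mice injected with saline, and 4 WT and 4 Ythdf1−/− mice injected with concanavalin A (ConA) at 8 mg/kg. The mice were 8 weeks old, the injection was given into the tail vein and tissue was taken at 8 h in every group. The study's legends describe the mice as male. The knockout was made with CRISPR and is carried by all cells of the animal, and KO stands below for a mouse labelled Ythdf1 knockout. ConA is a plant lectin that activates T cells and causes an acute, T cell-dependent hepatitis, and YTHDF1 is a cytoplasmic reader protein of N6-methyladenosine in mRNA. The comparisons ask how the chemokine system responds to ConA in each genotype and whether the genotypes differ.

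As background, interferon gamma from activated T, NK and NKT cells acts through its receptor and the kinases JAK1 and JAK2, and induces the transcription factor IRF1. Macrophages, endothelial cells and hepatocytes exposed to interferon gamma make CXCL9 and CXCL10. CXCL10 is also induced by type I interferons and by TNF through NF-kB, while CXCL9 depends more narrowly on interferon gamma. The secreted chemokines attract CXCR3+ effector T cells and NK cells, the receptor being carried mainly by those lymphocytes.

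The ligand genes lie side by side on the minus strand of chromosome 5, which is shown here because members that move together also share their neighbourhood. In GRCm38.p6, Cxcl9 occupies chr5:92321331-92328079 and its longest coding transcript in GENCODE vM21 has 4 exons. Cxcl10 follows 18558 bases away at chr5:92346638-92348889, with 3 exons. Cxcl11 lies another 10654 bases on, at chr5:92359544-92363296. Art3, on the plus strand at chr5:92331799-92414628, spans both Cxcl10 and Cxcl11. Cxcr3 lies elsewhere, at chrX:101731535-101734147 on the minus strand, with 2 exons. Of the 50-base stretches of the longest coding transcripts, the read length used, 100% for Cxcl10, 99.51% for Cxcl9 and 100% for Cxcr3 occur in no other gene, so the values are little exposed to reads shared with other genes.

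The 250 bases before each ligand gene start, taken from RefSeq for GRCm38.p6, are printed because both genes rose together and differ in the motifs they hold. Capitals mark matches to the interferon-stimulated response element (ISRE) core GAAANNGAA and to the NF-kB consensus. The first sequence is the minus strand of chr5:92328080-92328329, the second that of chr5:92348890-92349139.
Cxcl9: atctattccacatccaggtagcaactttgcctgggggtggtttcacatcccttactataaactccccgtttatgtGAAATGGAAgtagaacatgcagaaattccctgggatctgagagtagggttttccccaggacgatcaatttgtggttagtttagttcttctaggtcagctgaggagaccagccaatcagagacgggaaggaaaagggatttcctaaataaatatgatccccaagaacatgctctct
Cxcl10: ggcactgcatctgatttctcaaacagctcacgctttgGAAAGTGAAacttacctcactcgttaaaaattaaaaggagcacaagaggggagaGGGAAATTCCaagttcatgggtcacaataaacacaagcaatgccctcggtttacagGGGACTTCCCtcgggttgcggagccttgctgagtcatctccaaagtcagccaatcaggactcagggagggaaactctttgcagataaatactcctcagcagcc
The search covered both strands. Cxcl9 held 1 ISRE core, from −175 to −167 relative to the gene start. Cxcl10 held 1 ISRE core, from −213 to −205, and 2 NF-kB matches, from −159 to −150 and from −103 to −94, and none of these overlapped. Of 32851 promoters of this length, 7.13% held an ISRE core, 3.9% an NF-kB match, 0.493% at least 2 NF-kB matches and 0.24% both an ISRE core and an NF-kB match. The gamma-activated sequence TTCNNNGAA, present in 7.02% of promoters, was not matched in the window of either ligand gene, and the window of Cxcr3 held none of these motifs. Matches are a description of letters and were not tested as binding sites.

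The authors deposited expression as TPM, in which reads are divided by gene length and each library is scaled to 1000000, so levels of different genes can be compared. Read depth is unknown, no counting error can be given, and the spread between mice is the only error. The labels call the samples biological replicates. Differences were tested with limma on log2(TPM + 1), with adjustment by Benjamini-Hochberg over every gene that passed a filter on low TPM, and genes with an adjusted p under 0.05 are those called below. Log2 differences below are on this scale, which understates changes of genes with low TPM. A gene can reach the filter only through the group in which it is high. Such a gene can hardly be called the other way, which limits the counts of calls below. Ythdf1 itself was not lower in KO livers: its mean was 13.1 TPM in WT and 19.3 in KO mice under saline, and 21.5 in WT and 22.2 in KO mice under ConA. In KO saline against WT saline limma called Ythdf1 higher (0.53, adjusted p 0.0181), but not with WT saline replicates 2 and 3 averaged (adjusted p 0.0825). The study describes a CRISPR targeting strategy, and which part of the transcript is lost was not checked here. This whole-gene value therefore does not check the genotype label, and each direction between genotypes rests on the labels. WT saline replicates 2 and 3 differed by a median of 0.0793 on the log2 scale, less than the other 17 pairs of replicates (0.128 to 0.397), and results against WT saline are also given with them averaged as 1 mouse. On the second principal component (7.77% of the variance), WT ConA replicate 3 (40.3) and KO ConA replicate 3 (22.6) stood apart from the other ConA livers (−17.3 to 0.216), and results are also given without both. The hepatocyte markers, led by Alb (albumin), summed to 108048 to 129566 TPM in WT saline livers, as the tissue label says.

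Cxcl9 was scarce in saline livers and among the most abundant transcripts after ConA. In WT saline livers it was at 10.28, 7.03 and 8.77 TPM, and in KO saline livers at 6.95, 7.19 and 7.5 TPM. After ConA it reached 4079.95, 3910.06, 2487.96 and 2487.28 TPM in WT and 3847.95, 3712.32, 3949.02 and 3812.14 TPM in KO livers. Every ConA liver lay far above every saline liver, and WT ConA replicates 3 and 4 were the lowest of the 8 ConA livers. The mean rose from 8.69 ± 1.63 (SD, n = 3) to 3241 ± 873 TPM (SD, n = 4) in WT livers, 373-fold. In KO livers it rose from 7.21 ± 0.276 (SD, n = 3) to 3830 ± 97.7 TPM (SD, n = 4), 531-fold.

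Cxcl10 followed the same course at a lower level. It was at 4.52, 5.39 and 3.97 TPM in WT saline livers and at 3.61, 4.79 and 5.07 TPM in KO saline livers. After ConA it was at 781.05, 827.36, 451.48 and 540.98 TPM in WT and at 853.74, 815.73, 982.60 and 1009.19 TPM in KO livers. Again no ConA liver overlapped a saline liver, and WT ConA replicates 3 and 4 were the lowest. The mean rose from 4.63 ± 0.716 (SD, n = 3) to 650.2 ± 183 TPM (SD, n = 4) in WT livers, 141-fold, and from 4.49 ± 0.775 (SD, n = 3) to 915 ± 95.0 TPM (SD, n = 4) in KO livers, 204-fold.

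**Figure D1:**
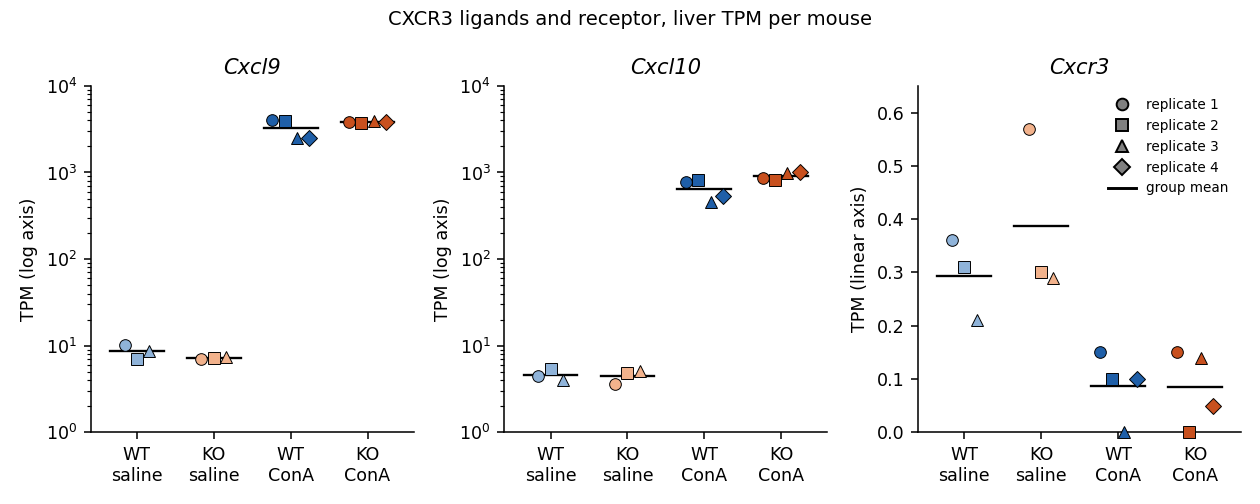
TPM of Cxcl9 and Cxcl10 (log axes) and of Cxcr3 (linear axis) in each of the 14 livers by group, with symbols for the replicate number and a line at the group mean. Both ligands sit between 3.61 and 10.28 TPM in saline and between 451.48 and 4079.95 TPM in ConA livers, while Cxcr3 lies lower in ConA than in saline livers.

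Both tested members were called higher by limma in each genotype. In WT ConA against WT saline, the log2 difference was 8.36 (SE 0.22, adjusted p 3.38e-08) for Cxcl9 and 6.82 (SE 0.22, adjusted p 1.1e-07) for Cxcl10, where 22% of the 10768 tested genes were called higher and 31% lower. In KO ConA against KO saline it was 8.87 (SE 0.10, adjusted p 1.1e-12) for Cxcl9 and 7.39 (SE 0.13, adjusted p 5.59e-11) for Cxcl10, where 33.9% of 10988 genes were called higher and 30.7% lower. By the size of the log2 difference, Cxcl9 ranked 3 and Cxcl10 ranked 9 among the tested genes in WT livers, and they ranked 2 and 10 in KO livers. The genes with a larger difference than Cxcl9 were the acute-phase genes Saa3 and Saa2 in WT livers and Saa2, which has a near-identical copy in Saa1, in KO livers. Without both ConA replicates 3 the differences were 8.47 and 6.98 in WT and 8.85 and 7.35 in KO livers, and with WT saline replicates 2 and 3 averaged they were 8.30 and 6.82 in WT livers. In bulk tissue, more cells making a transcript and more transcript per cell cannot be told apart.

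Among all 17656 genes, Cxcl9 ranked between 31 and 52 by TPM in WT ConA livers and between 30 and 33 in KO ConA livers, against 5040 to 6042 in WT saline livers. Cxcl10 ranked between 141 and 273 in WT ConA and between 112 and 132 in KO ConA livers, against 6709 to 7508 in WT saline livers. The files list 40 chemokine ligand genes. In saline livers the highest of them were the homeostatic chemokine Cxcl12 (163 ± 11.3 TPM in WT, 120.4 ± 6.92 in KO, SD, n = 3), followed by Ccl9 and Ccl27a, and Cxcl9 ranked 5 in both genotypes. After ConA the order changed to Cxcl9, Cxcl10 and the neutrophil chemoattractant Cxcl1 in both genotypes. Cxcl1, at 404 ± 52.9 TPM in WT ConA and 401 ± 46.3 TPM in KO ConA livers (SD, n = 4), stood below Cxcl10 in every ConA liver of both genotypes. Between different WT ConA mice, the highest Cxcl1 value (452.69 TPM) met the lowest Cxcl10 value (451.48 TPM). After ConA, Cxcl9 alone made up 61.7 to 70.3% of the TPM of all chemokine ligands in WT mice (2.32 to 3.51% under saline) and 64.0 to 69.3% in KO mice (2.63 to 2.83% under saline). The share of Cxcl10 after ConA was 12.4 to 14.8% in WT mice and 14.7 to 17.9% in KO mice, and under saline it did not exceed 1.92%. These shares are read within a library and do not depend on how libraries are scaled.

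**Figure D2:**
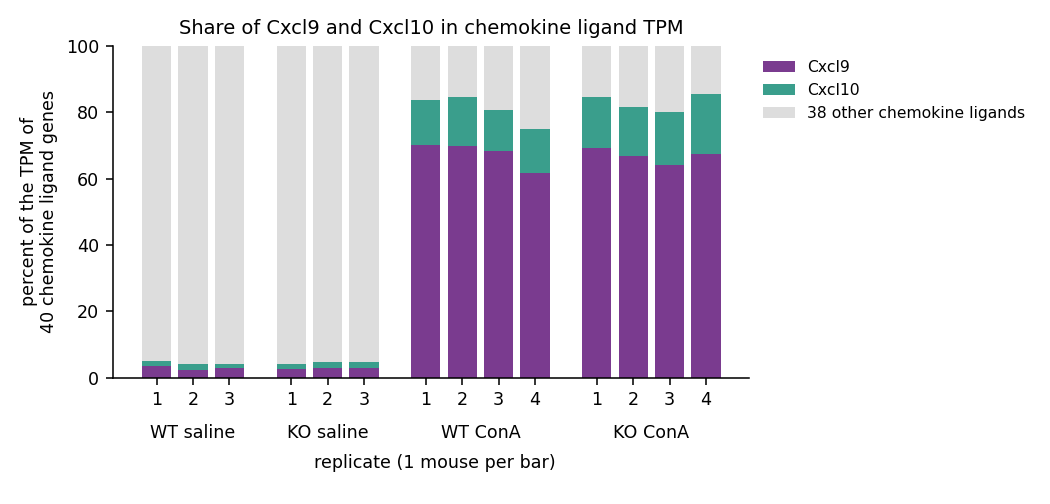
Percent of the summed TPM of 40 chemokine ligand genes held by Cxcl9, Cxcl10 and the other 38, with 1 bar per mouse grouped by genotype and treatment. The pair rises from a few percent in saline livers to most of the chemokine TPM in all 8 ConA livers.

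The other 38 ligand genes responded less uniformly. In WT ConA against WT saline, 15 of 21 tested were called higher and 4 lower (against 22% and 31% of all tested genes). Their median log2 difference was 1.68 against −0.07 over all tested genes. In KO ConA against KO saline, 20 of 27 tested were called higher and 3 lower (against 33.9% and 30.7% of all), with a median of 1.69 against 0.07 over all. Most ligands called higher, such as Ccl2 and Xcl1, reached the filter only through the ConA livers. The direction of their calls was therefore largely set by the filter, which also limits these counts and medians. Between the ConA-treated genotypes 0.342% of all tested genes were called higher and 0.0856% lower. Of the ligands, 2 of 28 were called, both higher in KO livers. They were Cxcl3, a neutrophil chemokine (0.27 to 0.48 TPM in WT, 1.21 to 2.03 in KO, adjusted p 0.0369), and Ccl21a, a lymphoid homing chemokine (0 to 0.57 TPM in WT, 1.04 to 2.83 in KO, adjusted p 0.0497), named after their values were seen. Both reached the filter only through the KO group in which they were high, so the count says little about ligands at such levels. Ccl21a was already higher in KO mice under saline (5.1 to 10.12 TPM, WT 0.7 to 1.9 TPM), and near-identical Ccl21 gene copies make its value uncertain. Both were at low TPM and not called with no filter (adjusted p 0.0686 and 0.0961), nor without both ConA replicates 3 (0.0863 and 0.101). Leaving out any 1 library except WT ConA replicate 1 also ended both calls, with adjusted p up to 0.106 for Cxcl3 and 0.0988 for Ccl21a, both without KO ConA replicate 4.

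The ligands were not called different between KO ConA and WT ConA livers, groups that also enter the comparisons with saline. Cxcl9 was 1.18-fold higher by the means, with a log2 difference of 0.28 (SE 0.18, adjusted p 0.48), and every KO liver fell inside the WT range. Cxcl10 was 1.41-fold higher, with a log2 difference of 0.53 (SE 0.19, adjusted p 0.201), and 3 of 4 KO livers lay above every WT liver. Of all 10519 tested genes, 0.342% were called higher and 0.0856% lower in KO ConA livers. By limma 0 of the 2 tested members were called, and 1, Cxcl10, had an unadjusted p under 0.05 (0.0185). Without both ConA replicates 3 the log2 differences were 0.15 for Cxcl9 (adjusted p 0.735) and 0.34 for Cxcl10 (adjusted p 0.386).

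The mice of the ConA groups differed in how widely the ligands were spread. The coefficient of variation of Cxcl9 was 26.9% among the 4 WT ConA livers and 2.55% among the 4 KO ConA livers. For Cxcl10 it was 28.1% and 10.4%. The WT values came in a high pair (replicates 1 and 2) and a low pair (replicates 3 and 4) for both genes, and the KO values of Cxcl9 lay at the level of the high pair. This contrast in spread is described without a test. WT ConA replicate 3, which had the lowest median ratio to the other libraries (0.791), was also one of the libraries standing apart, while replicate 4 had a ratio of 1.02.

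In saline livers neither ligand was called different between genotypes. The log2 difference of KO saline against WT saline was −0.23 (SE 0.13, adjusted p 0.231) for Cxcl9 and −0.04 (SE 0.14, adjusted p 0.87) for Cxcl10, where 6.3% of 10459 genes were called higher and 12.9% lower. By limma 0 of 2 were called and 0 had an unadjusted p under 0.05. The groups overlapped for both genes. The sign for Cxcl10 turned to 0.01 when libraries were rescaled. The interaction of genotype and ConA, the difference between the responses of KO and WT livers, was 0.51 (SE 0.25, adjusted p 0.211) for Cxcl9 and 0.57 (SE 0.27, adjusted p 0.203) for Cxcl10, with 2.64% of 11327 genes called higher and 2.14% lower. By limma 0 of 2 members were called here, and 0 had an unadjusted p under 0.05 (0.057 and 0.0526). The median interaction over all genes was 0.14, and 0.03 after rescaling, when the members' values were 0.37 and 0.44.

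The balance of the ligands moved with treatment and, to a smaller extent, with genotype. The ratio of Cxcl9 to Cxcl10 TPM was 2.27, 1.3 and 2.21 in WT saline and 1.93, 1.5 and 1.48 in KO saline livers. It was 5.22, 4.73, 5.51 and 4.6 in WT ConA and 4.51, 4.55, 4.02 and 3.78 in KO ConA livers. All ConA ratios exceeded all saline ratios, and all WT ConA ratios exceeded all KO ConA ratios, with the nearest values at 4.6 and 4.55. On the log2 scale, with 1 added to each TPM, the ratio was higher by 1.54 in WT ConA than WT saline and by 1.48 in KO ConA than KO saline livers, each with an exact two-sided permutation p of 0.0286 over the mice. In KO ConA against WT ConA livers the log2 difference was −0.25 (means 2.07 ± 0.131 and 2.32 ± 0.122, SD, n = 4 each), with an exact permutation p of 0.0286. In KO saline against WT saline it was −0.19, with an exact permutation p of 0.4. The first 3 of these are the smallest p their designs allow (35 or 70 arrangements), and the last design cannot go below 0.1. Adjusted over the 4 tests, the exact permutation p were 0.0381, 0.0381, 0.0381 and 0.4. Without both ConA replicates 3, the difference between ConA genotypes was −0.18 with an adjusted exact permutation p of 0.133. Leaving out any 1 mouse took the adjusted exact permutation p of the 3 to between 0.0571 and 0.133 and kept their signs. With so few mice left, an adjusted exact permutation p under 0.05 could not be reached, so the loss of these calls was fixed by the design. For KO ConA against WT ConA the adjusted exact permutation p was 0.0571, the smallest then possible, without WT ConA replicate 2 or 4 or KO ConA replicate 1 or 2. It was 0.114 without KO ConA replicate 3 or 4, and 0.133 without WT ConA replicate 1 or 3. A ratio of transcripts within a library shows unequal change of the 2 genes and not which one changed.

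**Figure D3:**
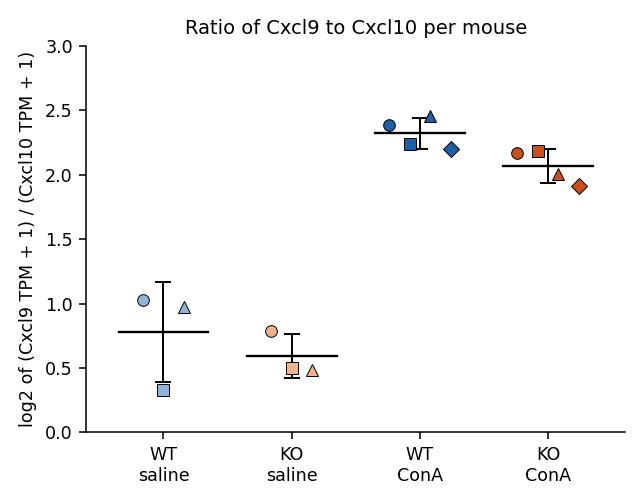
Log2 of the ratio of Cxcl9 to Cxcl10 (TPM + 1 each) in each liver by group, with group means as lines and SD as error bars. The WT ConA livers (2.20 to 2.46) lie above the KO ConA livers (1.92 to 2.18), and both lie above all saline livers (0.33 to 1.03).

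The receptor stayed scarce and was lower after ConA. Cxcr3 was at 0.36, 0.31 and 0.21 TPM in WT saline and at 0.57, 0.3 and 0.29 TPM in KO saline livers. After ConA it was at 0.15, 0.10, 0 and 0.10 TPM in WT and at 0.15, 0, 0.14 and 0.05 TPM in KO livers. Within each genotype every ConA liver was below every saline liver, 1 liver per ConA group was listed at 0, and the genotypes overlapped under both treatments. Cxcr3 stayed under the TPM of 1 that the main filter asks for and was therefore not among the tested genes. With no filter, limma called it lower in both genotypes, by −0.25 (SE 0.06, adjusted p 0.0122) in WT and −0.35 (SE 0.08, adjusted p 0.00806) in KO livers. An exact permutation test of its mean log2(TPM + 1), chosen after its values were seen, gave p = 0.0286 in each genotype, or 0.0571 adjusted over 4 comparisons, which did not pass the threshold. KO ConA against WT ConA differed by −0.0039 (exact permutation p 0.943). The depth behind these low values is unknown.

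Of the 5 other CXC chemokine receptors listed, 2 reached the filter and were called higher with ConA in both genotypes. Of all tested genes, 22% were called higher in WT and 33.9% in KO livers. Both receptor genes reached the filter only through the ConA livers, so the direction of their calls was largely set by it. Cxcr2, a neutrophil receptor, rose from 0.82 to 1.34 TPM in WT saline to 3.3 to 5.36 TPM in WT ConA livers (log2 difference 1.27, adjusted p 0.000311), and Cxcr4, the receptor of CXCL12, rose from 0.33 to 0.58 to 1.21 to 3.15 TPM (log2 difference 1.17, adjusted p 0.00154). In KO livers the log2 differences were 1.39 and 1.14. Neither was called between the ConA-treated genotypes (0 of 2 by limma, 0 with an unadjusted p under 0.05).

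Among markers of the lymphocytes that carry CXCR3, the tested ones mostly rose after ConA, while most defining T cell genes were too low to be tested. Of 19 T cell and NK cell markers, 18 had rows and 7 were tested in WT ConA against WT saline. Of these, 6 were called higher and 0 lower (against 22% and 31% of all tested genes), with a median log2 difference of 1.36 against −0.07 over all. In KO ConA against KO saline 6 of 8 were called higher (against 33.9% of all tested genes). The 6 called markers were Cd8b1, Nkg7, Gzma, Gzmb, Xcl1 and Ccl5 in both genotypes, which are the CD8 beta chain gene, genes of cytotoxic granules and lymphocyte chemokines. All but Ccl5 reached the filter only through the ConA livers in which they were high. The direction of these calls was therefore largely set by the filter. Cd8b1 rose from 0.25 to 0.65 TPM to 1.1 to 2.7 TPM in WT mice (0.89, adjusted p 0.00687) and by 1.46 in KO mice. Gzmb, a granule protease, rose from 0.05 to 0.61 TPM to 2.88 to 9.93 TPM in WT livers (log2 difference 2.22, adjusted p 0.000358). Xcl1, a lymphocyte chemokine, was listed at 0 in all 3 WT saline livers and at 2.5 to 7.25 TPM in WT ConA livers (adjusted p 0.000105). The other defining T cell genes were at or under 1.44 TPM in every liver, and their means moved unequally after ConA, with no test in WT mice. Cd3e (0.207 TPM under saline, 0.31 after ConA in WT) and Cd4 (0.15 and 0.065) overlapped between treatments, as did Cd3d (0.16 and 0.355) and Cd3g (0.303 and 0.453). Lck was 3.13-fold higher in WT and 1.84-fold higher in KO mice, and Cd8a 1.98-fold and 2.94-fold, without overlap for Lck in both genotypes and for Cd8a in KO mice. After ConA the means of Cd3d and Cd3g were 2.70-fold and 2.25-fold higher in KO mice, with 3 of 4 KO livers above all WT livers and the groups overlapping. The summed TPM of the list ran from 5.91 to 9.19 in WT mice given saline and from 20.39 to 53.16 after ConA, and in KO mice from 9.31 to 12.64 and from 24.55 to 61.37. The part of cell numbers in the Cxcr3 values was not tested. Between the ConA-treated genotypes 0 of 7 tested were called by limma and 1 had an unadjusted p under 0.05. The log2 difference was 0.44 for Cd8b1 and 0.61 for Gzmb, the list's smallest p values.

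Upstream of the ligands, the genes of the interferon gamma axis rose with ConA in most cases. Of 14 listed, 10 were tested, and 6 were called higher and 1 lower in WT ConA against WT saline (median log2 difference 0.80 against −0.07 over all). In KO ConA against KO saline 8 were called higher and 1 lower (median 1.63 against 0.07 over all). The shares called over all tested genes were 22% higher and 31% lower in WT livers, and 33.9% and 30.7% in KO livers. Ifng, the cytokine itself, was at 0.14, 0 and 0.07 TPM in WT saline and at 0.07, 0.07 and 0 TPM in KO saline livers. After ConA it was at 3.86, 2.46, 1.63 and 1.01 TPM in WT and at 6.05, 6.28, 12.14 and 5.02 TPM in KO livers. Every KO ConA liver lay above every WT ConA liver. The log2 difference between them was 1.38 (SE 0.30) with an adjusted p of 0.0674, so Ifng was not called. Its adjusted p was 0.0092 when all 14 libraries shared 1 estimate of spread, and 0.15 without both ConA replicates 3. Against saline Ifng was called higher in both genotypes, with log2 differences of 1.52 (adjusted p 0.00112) in WT and 2.93 (adjusted p 2.08e-06) in KO livers. Ifng reached the filter only through the ConA livers, as did Socs1 in both genotypes and Il12rb1 in WT livers, both given below. The direction of their calls was therefore largely set by the filter. The interaction for Ifng was 1.41 (adjusted p 0.0503). Its adjusted p was 0.0273 without WT ConA replicate 1 and 0.0487 without KO ConA replicate 3, and reached 0.129 with another library left out. It was 0.123 with WT saline replicates 2 and 3 averaged and 0.0739 with rescaled libraries.

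The signalling genes differed in size. In WT livers the log2 differences were 3.42 for Irf1 and 6.05 for Socs1, the feedback inhibitor of the pathway. In KO livers they were 4.49 and 5.91, all called. Among the receptor chains and kinases, Ifngr2 was called higher in both genotypes (0.74 in WT, 1.88 in KO). Ifngr1, Jak1 and Jak2 were called in KO livers (1.39, 1.25 and 1.28). In WT livers they had values of 0.49, 0.46 and 0.46 with adjusted p of 0.0842, 0.103 and 0.118, which became 0.00162, 0.00121 and 0.00281 without WT ConA replicate 3. Il18, which promotes interferon gamma production, fell in both genotypes (−1.82 in WT, −1.47 in KO). Il12rb1, a chain of the IL-12 receptor, rose in WT livers (0.87) and was not called in KO livers (0.21, adjusted p 0.325). Il12a and Il12b, the IL-12 subunits, stayed at or under 0.14 TPM in every liver, Il12rb2 between 0.22 and 0.56 TPM, and Tbx21, the T-bet gene, at or under 0.89 TPM. Between the ConA-treated genotypes limma called 0 of 10 axis genes, while 6 had an unadjusted p under 0.05, and the median was 0.40 against 0.05 over all genes. Among those 6, Il12rb1 was lower in KO livers (−0.47). With all 14 libraries in the fit Jak2 (0.65, adjusted p 0.0428) was called, like Ifng. In KO saline against WT saline 3 of 8 were called, all lower in KO livers, where 12.9% of all tested genes were called lower and 6.3% higher. They were Ifngr2 (−0.81), Irf1 (−0.58) and Il18 (−0.31). With all 14 libraries in the fit, Irf1 (adjusted p 0.09) and Il18 (adjusted p 0.31) were not called. Il18 was also not called with rescaled libraries (adjusted p 0.104), nor without any 1 saline library other than KO saline replicate 3 (0.0601 to 0.148). With WT saline replicates 2 and 3 averaged, the adjusted p of Ifngr2 and Irf1 was 0.0825, and leaving out either replicate gave 0.0804 and 0.0914 for Ifngr2 and 0.0891 and 0.0881 for Irf1, and Irf1 was also not called without KO saline replicate 1 (0.058).

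**Figure D4:**
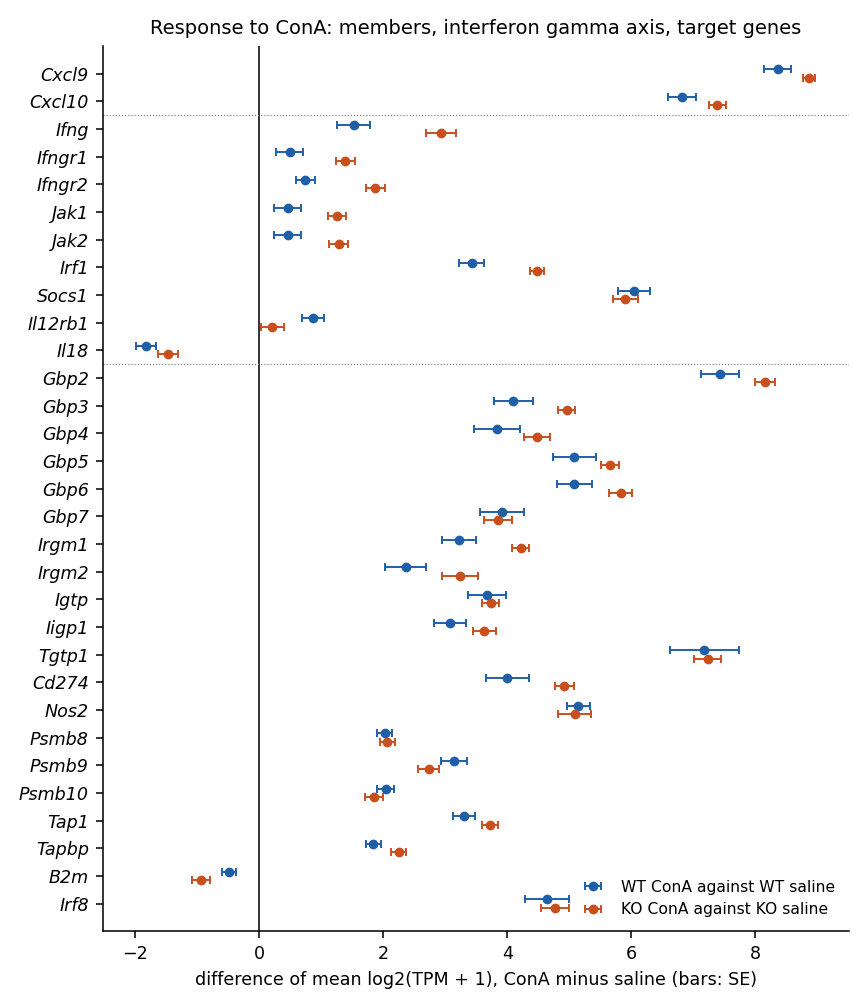
ConA minus saline differences of mean log2(TPM + 1) with SE for Cxcl9 and Cxcl10, 9 of the 10 tested interferon gamma axis genes and the tested interferon gamma target genes, WT in blue and KO in orange, with dotted lines between the 3 sets. Cxcl9 has the largest difference of the plotted genes in both genotypes, 8.36 and 8.87, followed by Gbp2 at 7.43 and 8.16.

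The ligands were set beside Ifng in each ConA liver, a ratio formed after the values were seen and described without a test. Cxcl9 TPM per Ifng TPM was 1057, 1589, 1526 and 2463 in WT ConA and 636, 591, 325 and 759 in KO ConA livers. For Cxcl10 it was 202, 336, 277 and 536 in WT and 141, 129.9, 80.9 and 201 in KO livers. The groups did not overlap for either ligand, although for Cxcl10 the nearest values were 202 and 201. Ifng alone was already higher in every KO than in every WT ConA liver, and neither ligand was lower by its mean in KO livers. The separation of these ratios therefore restates the difference in Ifng and is not a second result. KO ConA replicate 3 had the highest Ifng (12.14 TPM) with Cxcl9 at 3949 TPM, and WT ConA replicate 1 had 3.86 TPM of Ifng with Cxcl9 at 4079.95 TPM.

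**Figure D5:**
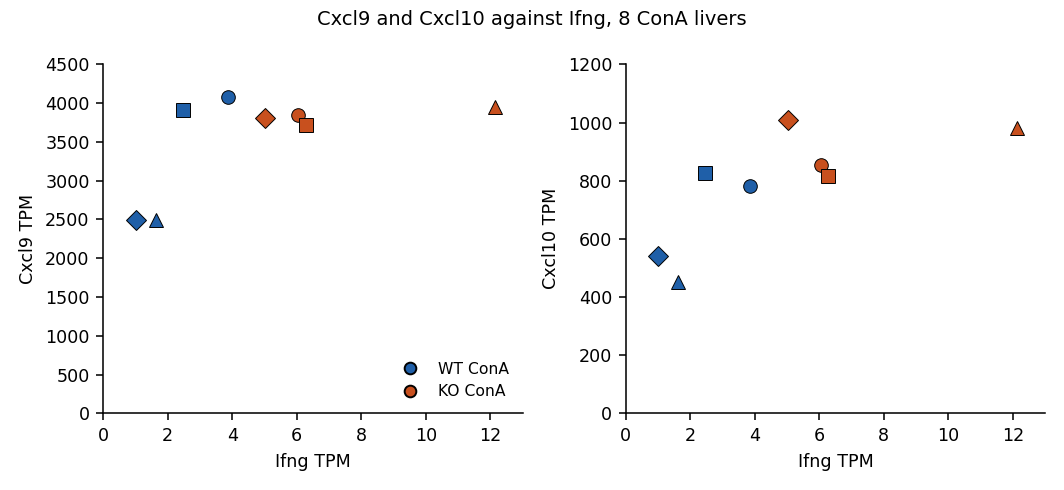
TPM of Cxcl9 (left) and Cxcl10 (right) against Ifng TPM in the 8 ConA livers, WT in blue and KO in orange, with symbols for replicate numbers as in the plot of the members. The KO livers lie at higher Ifng (5.02 to 12.14 TPM) than the WT livers (1.01 to 3.86 TPM), with KO Cxcl9 between 3712.32 and 3949.02 TPM.

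Genes that share the interferon gamma response moved with the ligands. Of 22 interferon gamma target genes, 20 were tested, and 19 were called higher and 1 lower in each genotype. The exception was B2m, the light chain of MHC class I, at −0.49 in WT and −0.94 in KO livers. The median log2 difference was 3.75 in WT against −0.07 over all genes, and 4.03 in KO against 0.07 over all. Of all tested genes, 22% were called higher and 31% lower in WT livers, and 33.9% and 30.7% in KO livers. A few target genes, such as Gbp5, reached the filter only through the ConA livers, which largely set the direction of their calls. Gbp2, a guanylate-binding protein, rose from 3.09 to 3.92 TPM in WT saline to 464 to 1141 TPM in WT ConA livers (7.43), and by 8.16 in KO livers. Tgtp1, an interferon-inducible GTPase, rose by 7.18 in WT and 7.23 in KO livers. In KO ConA against WT ConA limma called 0 of 20, with 4 at an unadjusted p under 0.05. The smallest p belonged to Gbp5 (0.76, adjusted p 0.222) and Gbp2 (0.65, adjusted p 0.248), and the median over the list was 0.22 against 0.05 over all genes.

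The other inputs to Cxcl10 were tested as a list of 11 genes of TNF and type I interferon signalling, 10 of them above the filter. In WT ConA against WT saline 7 were called higher and 2 lower, and in KO ConA against KO saline 6 higher and 2 lower. Over all genes 22% were called higher and 31% lower in WT, and 33.9% and 30.7% in KO mice. The list's medians were 1.18 and 1.3, against −0.07 and 0.07 over all genes. Tnf was at or under 0.05 TPM in all saline livers and reached 3.37 to 5.64 TPM in WT livers after ConA (2.44, adjusted p 5.76e-06) and 2.3 to 5.03 TPM in KO livers. Tnf reached the filter only through the ConA livers, so the direction of its calls was largely set by it. Irf7, a regulator of type I interferon genes, rose by 2.34 in WT and 2.08 in KO livers. Between the ConA-treated genotypes limma called 0 of 10 and 3 had an unadjusted p under 0.05. The smallest p belonged to the receptor chain Ifnar2 (−0.45, adjusted p 0.1) and the NF-kB subunit gene Nfkb1 (0.61, adjusted p 0.137), and with all 14 libraries in the fit both were called (0.0121 and 0.0321).

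Among 5 genes whose products act on or beside these chemokines outside the cell, Dpp4 and Cxcl12 fell in both genotypes. Dpp4, a protease that trims and inactivates CXCR3 ligands, fell from 31.5 to 37.5 TPM in WT saline to 8.07 to 11.8 TPM in WT ConA livers (−1.67, adjusted p 2.9e-05), and by −1.11 in KO livers (adjusted p 3.68e-05). Cxcl12, whose product shares the receptor ACKR3 with CXCL11, fell from 150 to 170 TPM to 18.5 to 32.2 TPM in WT livers (−2.64, adjusted p 6.69e-06), and by −2.40 in KO livers. Pf4, the platelet chemokine CXCL4, was called higher in WT livers (1.76, adjusted p 0.00345) and had a value of 0.59 in KO livers (adjusted p 0.113), which became 1.0 (adjusted p 0.00519) without KO saline replicate 1. The scavenging receptors Ackr1 and Ackr3 were called higher in KO livers (0.71 and 0.76, adjusted p 0.0428 and 0.0289), and each at or under 3.13 TPM. Both calls were lost with no filter (0.0835 and 0.0635) and without KO saline replicate 2 (0.126 and 0.145) or replicate 3 (0.117 and 0.0545), and that of Ackr3 without KO ConA replicate 3 (0.0678). Of the 5 genes, 0 were called by limma between the ConA-treated genotypes, and 1 had an unadjusted p under 0.05. In saline livers Dpp4 (−0.54) and Cxcl12 (−0.44) were called lower in KO, but not with WT saline replicates 2 and 3 averaged (adjusted p 0.101 and 0.117). Both calls were also lost with all 14 libraries in the fit (adjusted p 0.0683 and 0.315). Leaving out WT saline replicate 2 or 3 or KO saline replicate 1 or 2 also ended both calls, with adjusted p from 0.0565 to 0.118.

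The genes around the ligand cluster had smaller differences. Of the 3 nearest genes on each side, Naaa, Sdad1 and Nup54 had rows. Sdad1, a ribosome biogenesis gene, rose by 0.76 in WT and 1.08 in KO livers and stayed at or under 6.93 TPM. Nup54, a nuclear pore gene, was called in KO livers (0.87), and had a value of 0.17 in WT livers (adjusted p 0.524). Naaa, a lysosomal amidase gene, was called in neither (0.11 and −0.09). Art3, whose span holds Cxcl10, was at 0.22 to 1.53 TPM over all 14 livers.

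By correlation over the 14 livers, a description with no test in which treatment sets most of the variation, the genes most like Cxcl9 among 11327 were Cxcl10 (Pearson r 0.9982), Gbp2 (0.9978) and the receptor gene Tlr2 (0.9974). Among those most like Cxcl10 were Gbp2 (0.9989) and Cxcl9 (0.9982). Within the ConA groups, over the deviations of 8 livers from their group means, the closest to Cxcl9 were Rnf19b (0.983), Hpcal1 (0.9819) and Mlkl (0.9767), the last an effector of necroptosis. The closest to Cxcl10 were Ncald (0.9958), Gbp2 (0.9857) and Gcsh (0.9821). There the ligands correlated with each other at 0.9165, and Cxcl10 ranked 63 for Cxcl9. Rnf19b and Mlkl were higher in all ConA than in all saline livers, whereas Ncald overlapped between treatments and Gcsh was lower after ConA (WT, 32.2 to 55.6 TPM against 145 to 169 TPM).

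Markers of other cell types moved with ConA beside the ligands. The summed TPM of 7 neutrophil markers went from between 9.54 and 11.1 to between 318 and 560 in WT mice, and from between 5.3 and 10.83 to between 413 and 953 in KO mice. S100a8 (5.78 in WT, 6.77 in KO) and S100a9 (6.30 and 7.26) rose most. Ly6g went the other way and was not called by limma (−1.15, adjusted p 0.0631 in WT, and −0.21, adjusted p 0.37 in KO). For 5 monocyte markers the sums were 8.03 to 17.2 and then 37.2 to 70.7 TPM in WT mice, and 14.7 to 15.8 and then 36.6 to 109 TPM in KO mice, with Chil3 higher by 3.86 and 4.37. Kupffer cell markers (6 genes) went from 59.8 to 105 TPM down to 4.74 to 28.4 TPM in WT mice, and from 25.3 to 56.1 TPM down to 5.07 to 20.2 TPM in KO mice, with log2 differences of −3.32 and −2.13 for Clec4f. In KO mice members of this list differed in direction. By limma Marco (0.60, adjusted p 0.0754), Adgre1 (−0.10, adjusted p 0.658) and Timd4 (−0.14, adjusted p 0.514) were not called there. After ConA the 6 hepatocyte markers summed to between 57504.5 and 80711.5 TPM in WT mice and between 51579.6 and 64029.7 TPM in KO mice, with −0.71 and −0.98 for Alb. For 6 sinusoidal endothelial markers the sums were 21.3 to 29.3 and then 16.6 to 37.4 TPM in WT mice, and 34.6 to 57.6 and then 19.5 to 38.4 TPM in KO mice, and members differed in direction: Clec4g fell (−1.69 in WT, −2.52 in KO), whereas Lyve1 rose from 0.41 to 0.82 TPM to 1.95 to 9.09 TPM in WT mice (1.51, adjusted p 0.00674) and by 1.98 in KO mice (adjusted p 0.000378). The 4 B cell markers stayed at or under 4.11 TPM in sum. Between the ConA-treated genotypes limma called 0 genes of these lists, with 4 of 7 neutrophil markers and 1 of 6 hepatocyte markers at an unadjusted p under 0.05 and 0 among the monocyte, Kupffer and endothelial markers tested. The part of these cells in the ligand values was not tested.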

How the data were processed

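Libraries of liver RNA from 14 mice were read on a BGISEQ-500 (single-end, 50 bases). The authors deposited 1 table of TPM values per mouse, with 2 decimals and the same 17656 genes. The submitters' processing notes name Bowtie2, RSEM 1.3.1 and the build GRCm38.p6, whereas the study's methods name STAR and HTSeq, and which tools made the TPM values is not settled in the sources used here. Depth is not part of the files, and 2230 to 2701 genes per library are listed at 0. The study's methods test counts with edgeR, which TPM does not allow.

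Groups and replicate numbers came from the sample labels. Genes reaching a TPM of 1 in as many libraries as the smaller group holds, or more, were fitted on log2(TPM + 1) by limma 3.58.1 in R 4.3.3, using lmFit and a trended eBayes, and p values were adjusted by Benjamini-Hochberg over all of them. Each comparison used its own groups, and the interaction all 14 libraries. The scripts were tested on simulated data. The Cxcl9 to Cxcl10 ratio and Cxcr3 were compared with exact two-sided permutation tests over mice. The planned ratio of Cxcl11 was not run. Rank and list summaries used Python 3.11.15 with pandas 2.3.3, and figures matplotlib 3.10.9.

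Named are the members, the interferon gamma axis and the extracellular partners, of each other list the genes with the smallest p between the ConA genotypes and the largest called change in WT livers, the genes most like each ligand, the neighbours, and the highest chemokines. Of the marker lists only a few of these genes are printed, and some other genes the rule names are not reported here. The members, lists, tests and alternatives were chosen with earlier results of these data known. As alternatives, results were recomputed with a pseudocount of 0.1, with a TPM filter of 5, with no filter, and with rescaled libraries, a robust eBayes, all 14 libraries in the fit, a replicate block, WT saline replicates 2 and 3 averaged, both ConA replicates 3 left out, and each library left out in turn.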

Additional observations from a re-analysis of the deposited data

Results flagged for a closer look

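Among the groups of 4 mice, 1 mouse stood far from the other 3 in 6 of 86 sets of values examined, all in WT ConA livers, where chance flags about 1 in 20 groups. Ifngr2 was at 16.76 TPM in replicate 3, below the others (23.2 to 24.2). Replicate 1 was the highest for Xcl1 (7.25 TPM), Ackr1 (1.85 TPM), Clec4f (7.98 TPM), Clec4g (5.01 TPM) and Lyve1 (9.09 TPM). Neither Cxcl9, Cxcl10, Cxcr3 nor the ratio of the ligands was among them.

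The response to ConA differed between genotypes by the interaction test of limma for 2 of the genes named above, by 1.14 for Ifngr2 (adjusted p 0.0185) and 1.06 for Irf1 (adjusted p 0.0307), both larger in KO livers. Cxcl3 also passed (0.948, adjusted p 0.0167), but it was listed at 0 in all 6 saline livers, so this value is the difference between the ConA-treated genotypes given above and not a second result. With WT saline replicates 2 and 3 averaged, the adjusted p was 0.0747 for Ifngr2 and 0.0955 for Irf1. Leaving out WT saline replicate 2 or 3 or KO saline replicate 1 or 2 also ended both calls (0.0519 to 0.0766 for Ifngr2, 0.0579 to 0.0957 for Irf1), as did KO ConA replicate 2 (0.056) or 4 (0.0573) for Irf1. The call of Cxcl3 was lost without WT saline replicate 2 (0.0579) or 3 (0.0652), or KO saline replicate 1 (0.0511).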

How the results depend on the processing

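The number of members called was the same, 2 in each ConA against saline comparison and 0 in the others, under every alternative run, except that Cxcr3 was also called with no filter. The log2 differences of Cxcl9 and Cxcl10 kept their direction and side of the threshold, apart from the sign of Cxcl10 in KO saline against WT saline (0.0112 in rescaled libraries, −0.12 to 0.0831 with 1 library left out, positive without WT saline replicate 2, 0.0577, and without KO saline replicate 1). With 1 library left out, Cxcl9 ran from 8.23 to 8.48 in WT and 8.84 to 8.89 in KO livers against saline, and Cxcl10 from 6.69 to 6.98 and 7.27 to 7.46. The ratio results rest on small exact tests. With both ConA replicates 3 left out, the log2 ratio differed by −0.18 between the ConA-treated genotypes, and by 1.49 in WT and 1.5 in KO mice between ConA and saline, each with an adjusted exact permutation p of 0.133. With WT saline replicates 2 and 3 averaged, the WT difference was 1.48 (adjusted exact permutation p 0.0889). With 1 library left out they ran from −0.29 to −0.20, from 1.32 to 1.67 and from 1.43 to 1.58, with adjusted exact permutation p of 0.0571 to 0.133. None of these smaller designs could reach an adjusted exact permutation p under 0.05, so the loss of these calls was fixed in advance. Replicate numbers are shared by the groups, and the labels do not say whether they mark pairs or batches. Correlations of same-numbered deviations ran from −0.189 to 0.405, the highest between both ConA replicates 3, which does not settle it. The main fits treated the mice as unpaired. The replicate block changed no call of a member: with it, 0 members were called between the ConA-treated genotypes, where Cxcl9 was 0.28 and Cxcl10 0.53, and Ifng had an interaction with an adjusted p of 0.0477. Over all genes the block moved the calls from 45 to 140 in KO ConA against WT ConA and from 541 to 358 in the interaction. With WT saline replicates 2 and 3 averaged, the calls fell from 2009 to 49 in KO saline against WT saline and from 541 to 28 in the interaction. Rescaling moved the calls between the ConA genotypes from 36 higher and 9 lower to 12 and 13. The unknown depth limits Cxcr3 most, because its TPM stayed under 1. No filter together with a pseudocount of 0.1 was added after the data were seen.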
